A study of Mus musculus with 18 samples.

Results

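Sdc4, Tns1, Tgm2, Nod1, Pou2f2, H2-Oa and Fanci are 7 of the 23420 genes in a count table from sorted mouse regulatory T cells. They were picked because they were lower in fl/fl than in +/+ resting cells, so they were chosen by that difference, which is described here without a test. All 7 passed the filter on low counts, which kept 10630 genes. The 18 libraries form 6 groups of 3. Resting cells came from the genotypes that the labels write as FCre x C1+/+, FCre x C1fl/+ and FCre x C1fl/fl, called +/+, fl/+ and fl/fl here, and effector cells came from the same genotypes. C1 is a conditional allele of a component of the CBM signalosome, and FCre, a Cre that the labels do not expand, was present in every group, the +/+ controls included. The sources used here give no age, sex, treatment, promoter of the Cre or sorting markers. The labels do not say that replicates were separate animals, so p-values measure the spread between these samples, which may be technical. Values are CPM, counts scaled to a library size that is corrected by edgeR's TMM factor. Log2 differences come from edgeR's quasi-likelihood fit to all 18 libraries. Calls were made where p, adjusted by Benjamini-Hochberg over all genes tested, was under 0.05. An unadjusted edgeR p under 0.05 was found for 1834 of the 10630 genes in fl/fl against +/+ effector cells and for 873 in resting cells. Counts of unadjusted p below are to be read beside these.

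The CBM signalosome is a protein assembly that forms after antigen receptor engagement in lymphocytes and carries the signal to NF-κB, a family of transcription factors. Effector regulatory T cells are the activated form of these suppressive cells and depend on antigen receptor signals. The 7 genes have different roles: syndecan-4, tensin-1 and transglutaminase 2 act at the cell surface and its contacts with matrix, Nod1 senses bacterial wall fragments, Pou2f2 binds DNA, H2-Oa modulates peptide loading of MHC class II and Fanci repairs DNA crosslinks.

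Library totals ran from 1658073 to 5756903 expected counts. The labelled cell type was checked on 9 markers of T cells and regulatory T cells, which all had counts in every library, Foxp3, Cd4 and Cd3e among them. Their levels were not all equal between genotypes. In fl/fl against +/+ effector cells edgeR called 3 of the 9 lower, Ikzf2, Ctla4 and Nrp1, and 0 higher, where 1.65% of all genes were called lower. In resting cells it called 1 lower, Ikzf2, where 0.151% of all genes were. On the first axis of a principal component analysis, resting libraries ran from -37.3 to -22.3, apart from fl/fl replicate 1 at -12.6. Effector libraries ran from 24.8 to 40.9, apart from fl/fl replicates 2 and 3 at 2.2 and 11.6. These 3 libraries stood apart from the rest of their state, and the effector ones lay toward the resting libraries. Leaving out fl/fl effector replicate 2 or 3 did not change how many of the 7 genes were called. Calls did change without fl/fl effector replicate 1 or fl/+ effector replicate 3, at 28.2 and 37.6 on this axis, within the range of effector libraries. Those values are given below with and without the library.

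In effector cells, whose libraries took no part in the choice, Sdc4 was 4.62-fold lower in fl/fl than in +/+ and was the only one of the 7 called there, Tns1, Tgm2 and Pou2f2 had lower values without passing the threshold, and Nod1, H2-Oa and Fanci overlapped between the genotypes. From resting to effector cells of fl/+, H2-Oa, Pou2f2 and Tns1 rose.

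**Figure D1:**
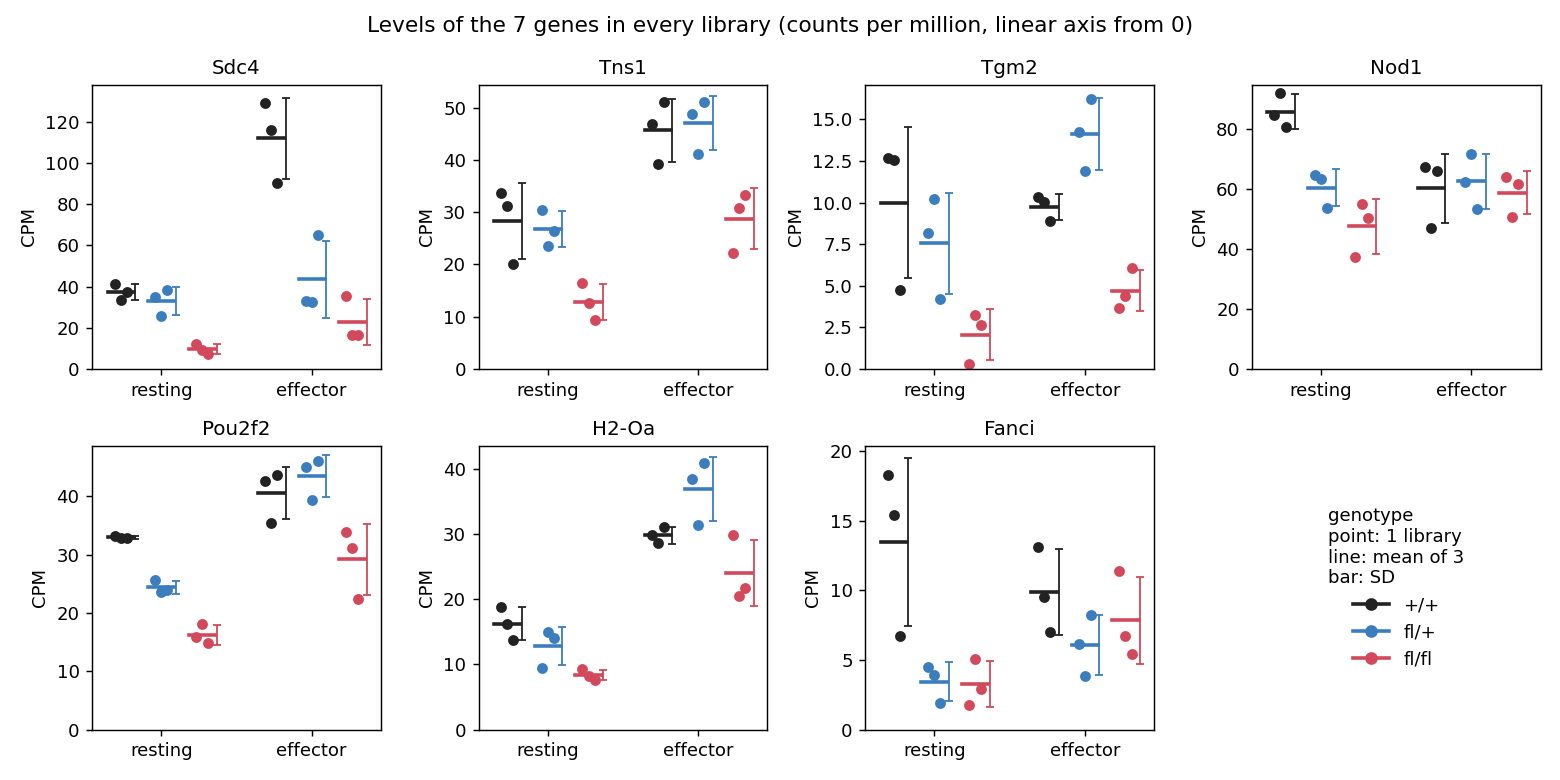
CPM of each of the 7 genes in every library, by state on the x axis and genotype by colour; points are libraries, lines are means and bars are SD over 3 libraries, and every axis starts at 0. Sdc4 lies between 90.6 and 129 CPM in +/+ effector cells, above every other library, while Nod1 overlaps in the 3 genotypes of effector cells.

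Syndecan-4 is a transmembrane proteoglycan whose heparan sulfate chains bind growth factors and matrix proteins and which acts beside integrins at cell contacts. Sdc4 lies at chr2:164424247-164443188 on the minus strand of GRCm38.p6. Of 5 motifs searched on both strands of the 250 bases before the start site, Sdc4 was the only one of the 6 genes with a promoter at hand to hold a κB motif, the kind of site that NF-κB factors bind. The stretch is printed because of that match, shown in capitals, and runs 5′ to 3′ over chr2:164443189-164443438 (RefSeq start site, minus strand).
Sdc4: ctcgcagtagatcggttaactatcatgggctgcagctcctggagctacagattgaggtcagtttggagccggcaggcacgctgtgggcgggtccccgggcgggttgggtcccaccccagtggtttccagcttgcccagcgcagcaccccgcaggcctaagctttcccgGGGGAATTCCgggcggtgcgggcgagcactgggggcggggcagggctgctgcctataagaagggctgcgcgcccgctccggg

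The match GGGGAATTCC lies 82 to 73 bases before the Sdc4 start, next to a GC box (GGGCGG) at 72 to 67 bases that it does not overlap. RefSeq promoters were at hand for 6 of the 7 genes, all but Tgm2, and were 7 in all because Nod1 has 2 start sites. The stretch for Pou2f2 (chr7:25132461-25132710, minus strand) lies inside the span of the gene given below. It belongs to an internal start site, and the bases before the outermost start were not searched. The stretch for the second Nod1 start (chr6:54971662-54971911) also lies inside its gene. Those for the first Nod1 start (chr6:54972613-54972862) and for Fanci (chr7:79392088-79392337) partly overlap the spans of their genes. The κB motif was in 1 of the 7 promoters and in 7.25% of all 32851 promoters of the same length. The GC box was in 5 of 7, against 32.7% of all. The CCAAT box was in 2 of 7, against 33.8%. Neither the AP-1 motif (TGANTCA) nor the octamer (ATTTGCAT), which Oct factors such as Pou2f2 bind, was in any of the 7, and 6.75% and 1.60% of all promoters held them. A match is a description of the letters, not of binding.

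In +/+ resting cells Sdc4 was at 41.1, 33.6 and 37.5 CPM, in fl/+ resting cells at 34.9, 25.6 and 38.5, and in fl/fl resting cells at 11.9, 9.38 and 7.08. The fl/fl values were below all others, and the fl/+ and +/+ values overlapped. The log2 difference of fl/fl from +/+ that chose the gene was -1.99 (SE 0.33), and that of fl/+ from +/+ was -0.19 (SE 0.29). In bulk libraries, fewer cells of a type and less RNA per cell cannot be told apart.

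In effector cells Sdc4 was at 129, 116 and 90.6 CPM in +/+, at 32.9, 32.6 and 64.8 in fl/+, and at 35.7, 16.4 and 16.3 in fl/fl. The 3 +/+ libraries were above all others, fl/+ replicate 3 was the highest of the rest, and fl/fl replicate 1 overlapped with fl/+. Sdc4 fell in fl/fl against +/+ effector cells by 2.21 on the log2 scale (SE 0.28, 95% interval -2.80 to -1.62, edgeR adjusted p = 0.000818), lower in 3 of 3 libraries. Leaving out each library in turn gave -2.77 to -1.998, with adjusted p from 6.53e-05 to 0.00739.

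A single copy of the conditional allele went with a lower Sdc4 value in effector cells, but its call depended on the fit. The log2 difference of fl/+ from +/+ effector cells was -1.38 (SE 0.26, edgeR adjusted p = 0.104), and all 3 fl/+ libraries were below all 3 +/+ libraries. With the replicate number as a block the adjusted p was 0.0142, and DESeq2 gave 0.00428. Limma and a fit to effector libraries only did not call it. Leaving out each library in turn gave -1.77 to -1.19, with edgeR adjusted p from 0.00834 to 0.823. Of these fits only the 1 without fl/+ effector replicate 3, at -1.77 and 0.00834, called Sdc4. Between fl/fl and fl/+ effector cells the log2 difference was -0.83 (SE 0.28, adjusted p = 0.204). That value was -1.40 without fl/fl effector replicate 1 (adjusted p = 0.0181) and -0.44 without fl/+ effector replicate 3 (adjusted p = 0.733), so 1 library on either side decided it. In fl/fl effector replicate 1 the summed level of 8 CD8 T cell and NK cell markers was 111 CPM, against 42.6 to 63.4 in the other effector libraries. In fl/fl resting replicate 1 it was 57.6 CPM, against 26.3 to 35.1 in the other resting libraries. Within the sum of fl/fl effector replicate 1, Nkg7 was at 62.8 CPM, against 21.8 to 41.4 in the other effector libraries. Klrb1c was at 21.8 CPM, against 0.67 to 4.84. The CD8 genes Cd8a and Cd8b1, at 2.70 and 16.2 CPM, lay within the other effector libraries, at 0.52 to 3.17 and 10.4 to 17.8. The part of these markers in the results was not tested.

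As shares of the +/+ effector mean of 112 CPM (SD 19.7, n = 3), Sdc4 stood at 38.8% in fl/+ effector, 33.4% in +/+ resting, 29.4% in fl/+ resting, 20.4% in fl/fl effector and 8.45% in fl/fl resting cells. In this order neighbouring groups overlapped, except fl/+ effector with +/+ effector and fl/fl resting with fl/fl effector. Between states the log2 difference was 1.58 (SE 0.27) in +/+ and 1.36 (SE 0.34) in fl/fl, which share libraries with the choice of the gene and are not tested. The fl/fl value was 0.80 without fl/fl effector replicate 1. In fl/+ it was 0.39 (SE 0.28, adjusted p = 0.387) and -0.01 without fl/+ effector replicate 3. Whether the change between states differs by genotype was not tested.

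The other syndecans had few reads. Sdc2 was at 0 CPM in both resting groups of the choosing contrast, and Sdc1, the plasma cell syndecan, was at a mean of 0.97 CPM in +/+ effector cells, too low to test. Sdc3 had a mean of 8.21 CPM in resting and 3.31 CPM in effector fl/+ cells, and fell between these states by 1.29 on the log2 scale (SE 0.36, adjusted p = 0.0168). In fl/fl against +/+ effector cells the difference of Sdc3 was 0.21 (SE 0.38, adjusted p = 0.844). Of 25 other genes for syndecans, glypicans and heparan sulfate synthesis, 18 were tested and edgeR called 0 between fl/fl and +/+ in either state, with 6 at an unadjusted p under 0.05 in effector and 2 in resting cells. DESeq2 called 1 of them in resting cells, Xylt2, which starts the sugar chain, and 0 in effector cells, and limma called 0 in both. Their median log2 difference in effector cells was 0.10, beside 0.01 over all genes.

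Tensin-1 links the tails of integrins to actin at matrix contacts. Tns1 (chr1:73910232-74124548) was at 33.7, 31.2 and 20.1 CPM in +/+, 30.4, 23.6 and 26.3 in fl/+, and 16.4, 12.6 and 9.45 in fl/fl resting cells. The choosing difference was -1.16 (SE 0.23). In effector cells it was at 46.9, 39.1 and 51.0 CPM in +/+, 48.8, 41.2 and 51.0 in fl/+, and 22.2, 30.9 and 33.2 in fl/fl. Every fl/fl effector library was below every library of the other genotypes, while +/+ and fl/+ overlapped. The log2 difference of fl/fl from +/+ effector cells was -0.71 (SE 0.20, edgeR adjusted p = 0.0632), with 0.0497 under the replicate block and 0.0454 in DESeq2. From fl/+ it was -0.75 (SE 0.20, adjusted p = 0.0906, DESeq2 0.0497). Tns1 rose between states in fl/+ by 0.80 (SE 0.20, adjusted p = 0.0081).

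Of the other tensin, integrin and contact genes, 16 were tested and edgeR called 1 in fl/fl against +/+ effector cells. It was Itgb3, the β3 integrin chain, at a mean of 75.0 against 31.6 CPM, a rise of 1.26 (SE 0.33, adjusted p = 0.0452). Its direction was opposite to that of Tns1. In resting cells edgeR called 0 of the 16, with 1 at an unadjusted p under 0.05, limma called 0 and DESeq2 called 1, Itgav. In fl/+ between states 3 rose and 2 fell. Itgb1, the β1 integrin chain, rose by 2.34 (SE 0.32, adjusted p = 6.99e-05).

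Transglutaminase 2 crosslinks proteins in the presence of calcium and binds fibronectin at the cell surface. Tgm2 (chr2:158116405-158146392), on the same chromosome as Sdc4, had few reads, from 1 to 86 counts per library. In resting cells it was at 12.7, 12.6 and 4.74 CPM in +/+, at 8.18, 10.2 and 4.23 in fl/+, and at 0.30, 3.25 and 2.66 in fl/fl, where the 0.30 is a single count. Replicate 3 was the lowest of both other genotypes. The choosing difference was -2.31 (SE 0.49), and -1.78 without fl/fl resting replicate 1.

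In effector cells Tgm2 was at 10.3, 10.0 and 8.87 CPM in +/+, 14.2, 11.9 and 16.2 in fl/+, and 3.66, 4.36 and 6.05 in fl/fl. The groups did not overlap: fl/+ was highest and fl/fl lowest. The difference of fl/fl from +/+ was -1.13 (SE 0.44, edgeR adjusted p = 0.179). From fl/+ it was -1.66 (SE 0.42, adjusted p = 0.0727), with 0.048 under the replicate block and 0.019 in DESeq2. The difference of fl/+ from +/+ was 0.53 (SE 0.38, adjusted p = 0.95), and between states in fl/+ it was 0.88 (SE 0.39, adjusted p = 0.141). Of the other transglutaminases, 1 had enough reads to test, and edgeR, DESeq2 and limma did not call it in any contrast named here, nor did it have an unadjusted p under 0.05.

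**Figure D2:**
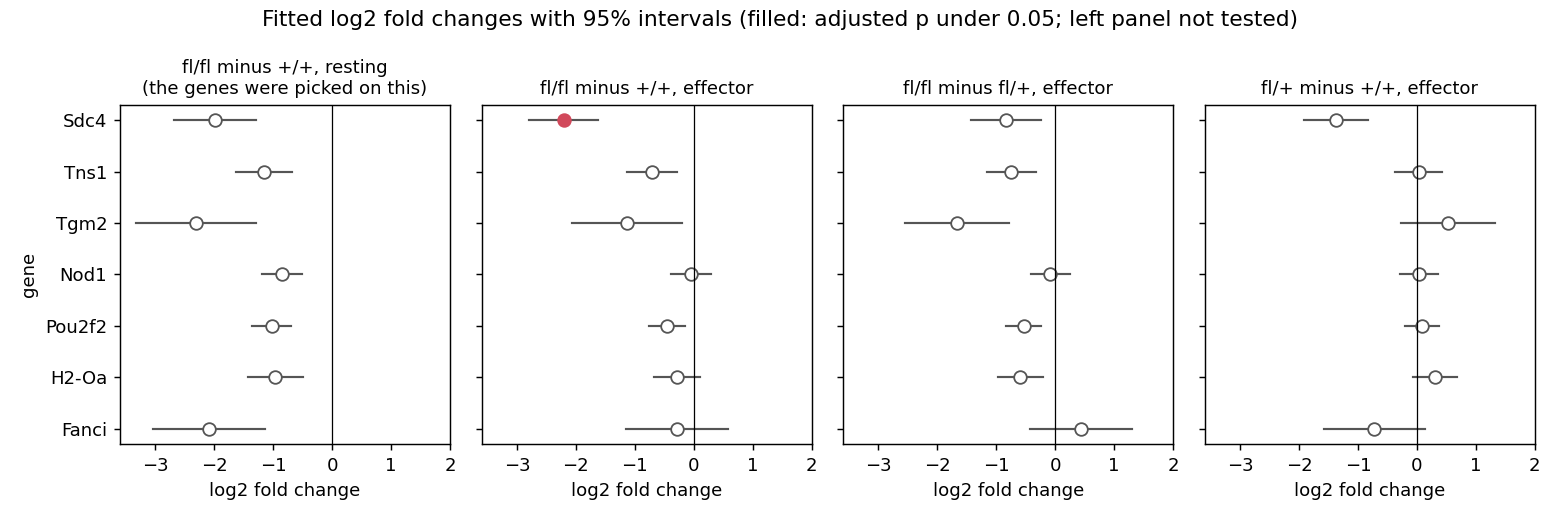
Log2 fold changes of the 7 genes with 95% intervals in 4 genotype contrasts; the x axis is log2, a point left of 0 is lower in the first genotype, and filled points passed an adjusted p of 0.05. The left panel is the contrast that chose the genes and carries no test; among the other panels the filled point is Sdc4 at -2.21.

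Nod1 is a cytosolic receptor for peptidoglycan fragments that signals through the kinase Ripk2 to NF-κB. Nod1 (chr6:54923942-54972674) was at 84.7, 92.0 and 80.5 CPM in +/+, 64.6, 63.4 and 53.5 in fl/+, and 37.3, 54.8 and 50.5 in fl/fl resting cells. Both genotypes with a floxed allele were below +/+ and overlapped with each other. The choosing difference was -0.85 (SE 0.16). In effector cells Nod1 was at 67.4, 47.0 and 66.2 CPM in +/+, 62.4, 71.7 and 53.5 in fl/+, and 64.0, 50.7 and 61.7 in fl/fl. These ranges overlapped throughout. The difference of fl/fl from +/+ was -0.05 (SE 0.16, adjusted p = 0.922), with a 95% interval of -0.39 to 0.29. Here and for the other genes, the resting and effector differences were not tested against each other.

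The rest of the NOD pathway was mostly not called. Of 17 other genes tested, edgeR, DESeq2 and limma called 0 in fl/fl against +/+ in either state, with 3 at an unadjusted p under 0.05 in resting and 1 in effector cells. Nod2, the sister receptor, had means of 2.79 CPM in fl/fl and 3.12 CPM in +/+ resting cells. Ripk2 had a difference of -0.33 (SE 0.26, adjusted p = 0.579) in effector cells.

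Pou2f2, also named Oct2, is a transcription factor that binds the octamer motif and is best known in B cells. Pou2f2 (chr7:25087350-25180797) was at 33.2, 32.8 and 32.8 CPM in +/+, 25.6, 23.6 and 24.0 in fl/+, and 15.8, 18.04 and 14.8 in fl/fl resting cells. The 3 genotypes did not overlap, and fl/+ lay between the others. The choosing difference was -1.03 (SE 0.16), and that of fl/+ from +/+ was -0.43 (SE 0.15). In effector cells it was at 42.7, 35.4 and 43.6 CPM in +/+, 45.0, 39.4 and 46.0 in fl/+, and 33.9, 31.2 and 22.4 in fl/fl. The fl/fl libraries were the lowest, and +/+ and fl/+ overlapped. The difference of fl/fl from +/+ was -0.45 (SE 0.15, edgeR adjusted p = 0.103) and from fl/+ -0.54 (SE 0.14, adjusted p = 0.0888). Without fl/fl effector replicate 1 these were -0.58 and -0.67, with adjusted p of 0.0497 and 0.0339. On leaving out each library in turn they ran up to -0.33 and -0.42, with adjusted p up to 0.323 and 0.362. No other omission led to a call of Pou2f2 in these contrasts.

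Pou2f2 rose from resting to effector cells of fl/+ by 0.83 (SE 0.15, edgeR adjusted p = 0.000555), higher in all 3 libraries. Pou2f1, its broadly expressed relative, was at a mean of 59.1 CPM in effector and 68.8 CPM in resting fl/+ cells, a difference of -0.22 (SE 0.13, adjusted p = 0.267). Pou2af1, the coactivator of both factors, had a difference of 1.87 between these states (SE 0.65, adjusted p = 0.0566), which limma called. Between the states of +/+, edgeR and DESeq2 called Pou2f1 lower, and DESeq2 and limma called Pou2af1 higher. Between those of fl/fl, edgeR, DESeq2 and limma called neither. Between fl/fl and +/+ effector cells Pou2f1 differed by -0.11 (SE 0.13, adjusted p = 0.753).

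H2-Oa encodes the α chain of H2-O, which pairs with the β chain from H2-Ob and restrains H2-DM, the editor of peptides on MHC class II. Its gene lies in the MHC at chr17:34092379-34095234, plus strand. Its promoter is printed beside that of Sdc4 as an example with a CCAAT box and no κB match, which also holds for the first Nod1 start site. The box is in capitals as the reverse complement ATTGG, 43 to 39 bases before the start (GRCm38.p6 chr17:34092129-34092378, plus strand).
H2-Oa: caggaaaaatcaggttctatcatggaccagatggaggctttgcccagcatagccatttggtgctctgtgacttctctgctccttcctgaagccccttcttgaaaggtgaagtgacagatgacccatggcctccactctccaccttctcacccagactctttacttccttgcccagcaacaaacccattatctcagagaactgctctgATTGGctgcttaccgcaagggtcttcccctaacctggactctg

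In resting cells H2-Oa was at 18.8, 16.2 and 13.8 CPM in +/+, 9.48, 14.95 and 14.1 in fl/+, and 9.24, 8.30 and 7.67 in fl/fl. The fl/fl libraries were the lowest, just below fl/+ replicate 1. The choosing difference was -0.96 (SE 0.22), and H2-Oa ranked 74 by p among the 74 genes called in that contrast, at the edge of the list. In effector cells H2-Oa was at 29.8, 28.5 and 31.0 CPM in +/+, 38.4, 31.3 and 40.9 in fl/+, and 29.9, 20.5 and 21.8 in fl/fl. The fl/+ libraries were the highest, and fl/fl replicate 1 lay within the +/+ range. The difference of fl/fl from +/+ was -0.28 (SE 0.19, adjusted p = 0.498) and from fl/+ -0.59 (SE 0.18, adjusted p = 0.153). The latter was -0.81 without fl/fl effector replicate 1 (adjusted p = 0.0389). On leaving out each library in turn it ran up to -0.48, with adjusted p up to 0.582, and no other omission led to a call.

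Between the states of fl/+ the genes for both H2-O chains moved in opposite directions. H2-Oa rose by 1.56 (SE 0.20, edgeR adjusted p = 3.6e-05) and H2-Ob fell by 1.137 (SE 0.17, adjusted p = 0.000129). H2-Ob was at 97.8, 71.6 and 86.9 CPM in resting and 36.6, 44.0 and 36.8 in effector fl/+ cells. It also fell between the states of +/+ by 1.137 (SE 0.18, adjusted p = 0.000158) and of fl/fl by 0.64 (SE 0.17, adjusted p = 0.0274). The H2-Oa differences in those genotypes, not tested, were 0.86 (SE 0.20) and 1.54 (SE 0.21). H2-DMa, a chain of H2-DM, had a difference of 0.58 between the states of fl/+ (SE 0.24, adjusted p = 0.113), and Cd74, the invariant chain, 1.29 (SE 0.62, adjusted p = 0.175). Of 10 other MHC class II genes tested, edgeR, DESeq2 and limma called 0 in fl/fl against +/+ in either state, with 1 at an unadjusted p under 0.05 in effector and 0 in resting cells.

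Pou2f2 and H2-Oa are also B cell genes, so a list of B cell markers was measured beside them. The summed CPM of the 17 markers in the table was 46.2, 57.5 and 172 in +/+, 37.3, 43.7 and 116 in fl/+, and 38.5, 52.0 and 54.3 in fl/fl resting cells, and 32.6 to 81.3 in effector cells. Of these, 7 were tested, with a median log2 difference of -0.99 in fl/fl against +/+ resting cells and 2 at an unadjusted p under 0.05; edgeR, DESeq2 and limma called 0. Cd72 was at 24.9, 23.9 and 28.0 CPM in +/+ and 14.9, 12.3 and 15.3 CPM in fl/fl resting cells, and Pax5, a defining B cell factor, at 0, 0 and 0.79 CPM in +/+ and 0, 0 and 0.89 CPM in fl/fl. Without +/+ resting replicate 3, which had the highest sum, the resting differences were -1.07 for H2-Oa and -1.04 for Pou2f2. The part of B cell RNA in these differences was not tested.

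Fanci is the partner of Fancd2 in a clamp that closes on DNA at crosslinks during repair. Fanci (chr7:79392312-79450266) had 4.23 to 71.66 counts per library, none of them whole, so part of its reads was shared with other genes by the counting. In resting cells it was at 18.3, 15.4 and 6.71 CPM in +/+, 4.52, 3.94 and 1.88 in fl/+, and 1.79, 5.05 and 2.95 in fl/fl. The genotypes with a floxed allele overlapped, and +/+ was above both and spread widely. The choosing difference was -2.08 (SE 0.46), and that of fl/+ from +/+ was -1.90 (SE 0.45). In effector cells Fanci was at 13.1, 9.51 and 7.02 CPM in +/+, 6.12, 3.88 and 8.22 in fl/+, and 11.4, 6.71 and 5.44 in fl/fl. These ranges overlapped. The difference of fl/fl from +/+ was -0.29 (SE 0.42, adjusted p = 0.806), and its 95% interval was -1.15 to 0.58.

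Fancd2 was at 0.86, 0.39 and 0 CPM in resting and 8.77, 7.51 and 17.4 in effector fl/+ cells, a rise of 4.33 (SE 0.67, edgeR adjusted p = 0.000173). It also rose in +/+ by 2.21 (SE 0.57, adjusted p = 0.0106) and in fl/fl by 1.98 (SE 0.52, adjusted p = 0.0245). Fanci differed between the states of fl/+ by 0.74 (SE 0.46, adjusted p = 0.311), and by -0.43 (SE 0.40) in +/+, where it is not tested. Of 20 S phase and mitosis genes, which mark dividing cells, 19 rose and 0 fell between the states of fl/+. Their summed CPM in resting cells was 766 to 848 in +/+, 701 to 781 in fl/+ and 670 to 846 in fl/fl. Those ranges overlapped. The part of cell division in the Fanci difference was not tested. Of 13 other Fanconi genes tested, edgeR, DESeq2 and limma called 0 in fl/fl against +/+ in either state, with 2 at an unadjusted p under 0.05 in resting and 0 in effector cells.

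**Figure D3:**
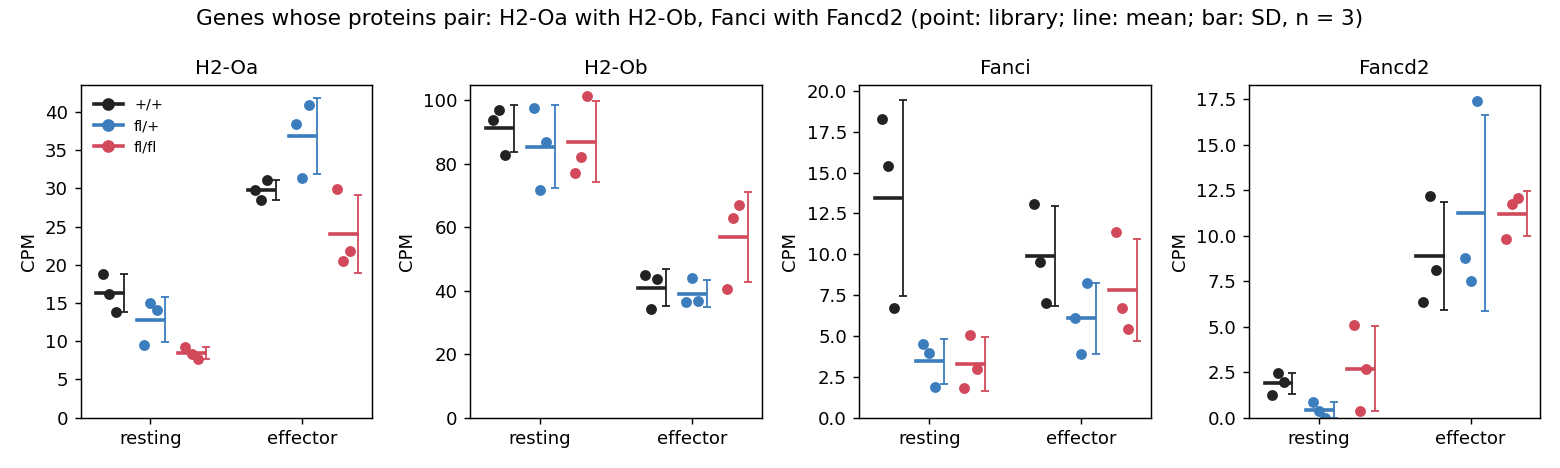
CPM of H2-Oa beside H2-Ob and of Fanci beside Fancd2, genes whose proteins pair, by state and genotype; points are libraries, lines means and bars SD over 3 libraries. H2-Oa is higher in effector cells while H2-Ob is lower, and Fancd2 is higher in effector cells in all 3 genotypes, while the Fanci ranges of the states overlap in +/+ and fl/+.

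Counted together, in the contrast that chose them the 7 genes had log2 differences of -2.31 to -0.85, and all 7 had fl/fl below +/+ without overlap, as had 5.46% of all genes; this only restates the choice. That contrast called 16 genes lower, 0.151% of those tested, and the 7 had ranks 1 (Tgm2), 2 (Fanci), 3 (Sdc4), 5 (Tns1), 8 (Pou2f2), 9 (H2-Oa) and 10 (Nod1) among them by fold. In fl/+ against +/+ resting cells, which share the +/+ libraries, Fanci, Nod1 and Pou2f2 were the 3 lower without overlap, beside 4.93% of all genes. In fl/fl against fl/+ resting cells, which share the fl/fl libraries, the 5 without overlap were Sdc4, Tgm2, Tns1, Pou2f2 and H2-Oa, at -1.80, -1.91, -1.07, -0.60 and -0.57, beside 4.67% of all genes.

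In fl/fl against +/+ effector cells 1 of the 7 was called lower, where 1.65% of all genes were. All 7 had a value below 0, as had 49% of all genes, and for 4 the groups did not overlap, as for 10.2% of all genes. Their median was -0.45, beside 0.01 over all genes. In fl/fl against fl/+ effector cells edgeR called 0 of the 7, where 0.677% of all genes were called in either direction. An unadjusted p under 0.05 was found for 5 of the 7 and for 1250 of the 10630 genes. DESeq2 called 2 of the 7 and 182 genes in all, the replicate block 1 and 181, and limma 0 and 33. The groups did not overlap for 4, as for 8.45% of all genes. In fl/+ against +/+ effector cells edgeR called 0 of the 7, where 0.00941% were called in either direction. There 1 of the 7 and 581 of the 10630 genes had an unadjusted p under 0.05. DESeq2 called 1 of the 7 and 21 genes in all, the block 1 and 34, and limma 0 and 2. The 1 gene was Sdc4 in each case. In fl/+ between states 3 of the 7 were called higher, where 9.72% of all genes were, and 4 were higher without overlap, as were 18% of all genes. Effector and resting libraries of one genotype and number deviated together, so the effector libraries are not wholly independent of those used to choose the genes.

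In FPKM, which corrects for length, the mean over the 18 libraries was highest for H2-Oa at 22.7, then Sdc4 at 18.4, Nod1 at 14.96, Pou2f2 at 9.79, Tns1 at 3.22, Tgm2 at 2.33 and Fanci at 1.62. Over the 12 libraries that took no part in the choice, the log2 CPM of Pou2f2 and H2-Oa had the highest correlation among the 7 (Pearson r = 0.85), and Nod1 had the lowest with the others, at -0.06 to 0.18. These libraries share genotype and state groups, and the values are a description.

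The genes with the pattern most like that of Sdc4 over all 18 libraries, among 8828 compared, were Ikzf2 (r = 0.89), H2-Q5 (0.87), Myo1e (0.86), Btbd19 (0.85) and Sntb1 (0.85). Over the 12 libraries not used in the choice they were Nabp2 (0.95), H2-Q5 (0.93), Reps1 (0.88), Vamp5 (0.87) and Itm2b (0.87). Ikzf2, which encodes Helios, a transcription factor of regulatory T cells, was at a mean of 274 CPM in fl/fl and 516 CPM in +/+ effector cells, and at 200.1 and 346 CPM in resting cells. Myo1e, an unconventional myosin gene, was at 29.2 and 62.5 CPM in effector cells. These genes were chosen for that pattern, so their values are a description. H2-Q5 belongs to a family of near-identical class I genes, so its reads are uncertain. Nabp2, a single-stranded DNA binding protein gene, did not share the resting difference of Sdc4, at a mean of 34.4 CPM in fl/fl and 32.4 CPM in +/+.

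Of 26 other NF-κB target genes tested, edgeR called 1 higher and 2 lower in fl/fl against +/+ effector cells. Among all genes 2.81% were called there in either direction. An unadjusted p under 0.05 was found for 13 of the 26 and for 1834 of all 10630 genes. DESeq2 called 1 higher and 5 lower, Cd83 not among them, and limma 1 higher and 3 lower. Tnfrsf1b, which encodes TNF receptor 2, fell by 1.16 (SE 0.22, adjusted p = 0.00779), Cd83, a surface protein of activated lymphocytes, fell by 1.45 (SE 0.38, adjusted p = 0.0429), and Ccr7, a homing receptor, rose by 0.68 (SE 0.17, adjusted p = 0.0371). The median of the list was -0.23, beside 0.01 over all genes. In resting cells edgeR, DESeq2 and limma called 0 of the 26, with 5 at an unadjusted p under 0.05. The 20 S phase and mitosis genes had 2 that rose and 0 that fell in effector fl/fl against +/+ cells, Mcm2 by 0.56 (SE 0.12, adjusted p = 0.0194) and Birc5 by 1.16 (SE 0.31, adjusted p = 0.0498). Of the 20, 15 had an unadjusted p under 0.05 there, DESeq2 and limma each called 3 higher, and the median was 0.64, beside 0.01 over all genes.

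**Figure D4:**
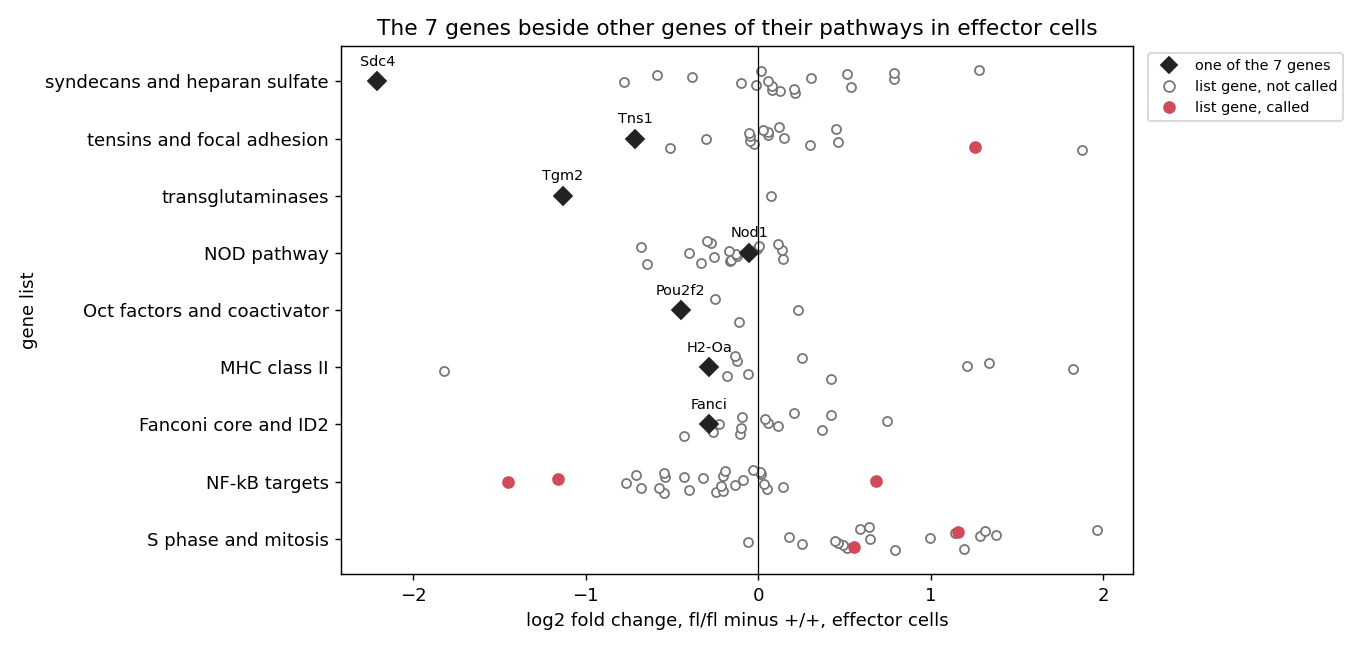
Log2 fold changes of fl/fl minus +/+ in effector cells for the 7 genes (diamonds) and for the other tested genes of each list (circles, filled where called), one list per row. Sdc4 at -2.21 lies below every other gene of the syndecan and heparan sulfate list, while Nod1 at -0.05 lies among the NOD pathway genes.

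The tested genes on either side of each of the 7, 14 in all, were measured in the same contrasts. In fl/fl against +/+ resting cells edgeR, DESeq2 and limma called 0 of the 14, and 0 had an unadjusted p under 0.05. In effector cells they called 0, and 4 had an unadjusted p under 0.05, as had 1834 of all 10630 genes. Stk4 and Sys1, which flank Sdc4, differed by 0.11 (adjusted p = 0.586) and -0.20 (adjusted p = 0.504) in effector cells. D930028M14Rik overlaps Pou2f2 and Polg overlaps Fanci. No source used here gives the strand setting of the counting, so reads of those overlaps cannot be told apart.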

How the data were processed

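RNA-seq libraries of sorted mouse regulatory T cells were grouped by the genotype and state in the labels, and all columns of the deposited tables matched a sample. Build mm10, STAR 2.6.0, RSEM 1.2.8 and bcl2fastq 2.17.1.14 are listed in the submitters' processing notes, with no order, annotation or strand setting. The authors deposited RSEM expected counts per gene symbol, of which 29.4% of nonzero values were not whole, and these were rounded for fitting. The FPKM values, also deposited by the authors, were used for levels between genes and in 1 alternative, as log2(FPKM + 1) with limma 3.58.1.

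Counts were fitted in R 4.3.3 with edgeR 4.0.16 (TMM, filterByExpr by group, 6 group means, quasi-likelihood F test, Benjamini-Hochberg over 10630 genes) and no limit on the fold. DESeq2 1.42.0, other scaling, no filter, a replicate block, fewer groups and leaving out each library were alternatives. The code was tested on simulated data. Intervals and SDs cover the spread between libraries. The 7 genes and all lists were chosen with earlier results of these data known. Named beside the 7 are near relatives, up to 4 called genes per list, the genes most like Sdc4 and the flanking genes. The replicate number is called batch in the labels and so pairs samples: residuals of resting and effector libraries with the same genotype and number correlated at a mean of 0.21 (0.14 to 0.34 in 9 pairs), and those of one number and other genotypes at 0.07 (-0.08 to 0.30 in 36 pairs). Promoter sequences are from RefSeq for GRCm38.p6, gene positions likewise. The targeted gene itself is not reported here.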

Additional observations from a re-analysis of the deposited data

How the results depend on the processing

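The call of Sdc4 in fl/fl against +/+ effector cells and the 3 calls between the states of fl/+ were made under every alternative run. Of the genotype contrasts in effector cells, the counts of the 7 genes called moved from 1 to 2 for fl/fl against +/+ without the filter, with the replicate block and in DESeq2. For fl/fl against fl/+ they moved from 0 to 3 without the filter, 1 with the block, 1 with effector libraries only and 2 in DESeq2. For fl/+ against +/+ they moved from 0 to 1 without the filter, with the block and in DESeq2. Leaving out 1 library gave 1 to 2, 0 to 3 and 0 to 1. The blocked fit, which pairs libraries by number, changed no call of the 7 other than those of Tns1, Tgm2 and Sdc4 named above.

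Over all genes, fl/fl against +/+ effector cells had 299 calls, 830 without the filter and 552 with the block, and 31 (without +/+ replicate 1) to 648 (without fl/fl replicate 1; 35 and 88 without fl/fl replicates 2 and 3) on leaving out a library. For fl/fl against fl/+, 72 calls became 488 without the filter, 181 with the block, 10 with effector libraries only, 182 in DESeq2 and 33 in limma, and 3 (without fl/+ replicate 3) to 310 (without fl/fl replicate 1; 4 and 15 without replicates 2 and 3). For fl/+ against +/+, 1 call became 176, 34, 0, 21 and 2 under the same alternatives, and 1 to 5. Between the states of fl/+, 1732 calls became 1092 (without effector replicate 3) to 1601, and limma on FPKM called 1634, of which 1233 were higher, against 1033 of 1732. The causes were not tested.

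Among the tested values the sign turned on leaving out a library for 7: Nod1 ran from -0.19 to 0.045 (fl/fl against +/+), -0.19 to 0.010 (fl/fl against fl/+), -0.096 to 0.14 (fl/+ against +/+) and -0.053 to 0.14 (states of fl/+). Fanci ran from -0.70 to 0.016 (fl/fl against +/+), Tns1 from -0.053 to 0.12 (fl/+ against +/+) and Sdc4 from -0.0062 to 0.57 (states of fl/+). Among the values not tested it turned for Tgm2 between the states of +/+ (-0.37 to 0.18), Fanci in fl/fl against fl/+ resting cells (-0.61 to 0.11) and Tns1 in fl/+ against +/+ resting cells (-0.27 to 0.077). Fanci and Tgm2, with mean CPM of 7.33 and 8.03, have the widest errors.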
